A study of Mus musculus with 18 samples.

Results

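The genes described here are 48 genes of DNA replication and S phase, taken by gene symbol from a list of such genes and all found among the 39179 genes of the count tables. All 48 passed the filter on low counts and were among the 15006 genes tested. In background, replication is licensed in G1 when the origin recognition complex, CDC6 and CDT1 load the MCM2-7 helicase onto DNA, and it starts in S phase when CDC45 and the GINS complex turn the loaded helicase on. Polymerases, a sliding clamp with its loader and the DNA ligase then copy both strands, while ribonucleotide reductase and thymidylate enzymes supply the nucleotides. Many of these genes are induced together by E2F transcription factors as cells pass from G1 into S phase, and their mRNA is widely used as a sign of proliferation.

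RNA was sequenced from MC38 cells, a cultured mouse line that the labels derive from a C57BL6 colon adenocarcinoma, in 18 libraries that form 6 groups of 3. The APC-deleted line and the APC-intact line were each taken without doxycycline and after 24 and 48 h with 1 µM doxycycline, the drug that switches on an inducible hairpin (shTDO2) against Tdo2, the first enzyme of tryptophan breakdown. The series set out to compare the response to this knockdown between cells with and without APC, a suppressor of Wnt signalling. Both lines share the MC38 background and a medium whose serum was approved for tetracycline-controlled systems. The titles name the hairpin for treated libraries only, and the protocol speaks of hairpin cells with and without the drug, so the effect of the hairpin cannot be told apart from that of doxycycline. By the titles alone, the untreated libraries may come from cells without the hairpin construct. In that case carrying the construct cannot be told apart from treatment either. The protocol calls the replicates biological triplicates, without saying that they were separate cultures or whether the APC-deleted line is a single clone, and the spread behind the p-values is that of these libraries, which may be technical.

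Gene counts per library ran from 71970499 to 111948430. Tdo2 had 6 to 29 counts in every library, and no treated group differed from its untreated group by edgeR's quasi-likelihood test (Benjamini-Hochberg adjusted p from 0.494 to 0.856). Apc was counted at 5705 to 9295 in APC-deleted libraries and at 7812 to 15111 in APC-intact libraries, and was lower in the APC-deleted line without doxycycline (log2 fold change −0.57, edgeR adjusted p = 0.0024). Which part of Apc was deleted is not given in the sources used here, and counts outside it check nothing. Of 10 epithelial markers 5 passed the filter, the highest of them Krt8 at 65 to 363 counts, Cdh1 at 45 to 176 and Cldn4 at 27 to 107, while Cdx2 was at 0 and Epcam at no more than 1 count. Collagen genes were abundant (Col1a1 at 44307 to 119807 counts), so markers of the labelled colon epithelium were low or absent. A pair of libraries stood apart in a principal component analysis, APC-deleted 48 h replicate 2 (a score of 34.7 on component 3) and APC-intact 24 h replicate 1 (35.1 on component 4), and counts without them are given beside the main ones. APC-intact 24 h replicate 2 also lay off its group on components 3 (22.5) and 5 (25.9), and differed from replicates 1 and 3 by a chi-square per degree of freedom of 46.6 and 71.2, against 27 between those. The deposited file names carry 2 run designations, read here as 2 runs: all untreated libraries and the APC-intact 24 h libraries share the first, and the other treated libraries share the second.

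Per exon length the 48 genes spanned a wide range. Dut, which removes dUTP from the nucleotide pool, had the highest median RPKM over the 18 libraries (74.4), followed by the ribonucleotide reductase genes Rrm1 (58.1) and Rrm2 (57.8), the clamp gene Pcna (56.2), and the helicase genes Mcm6 (56.2), Mcm2 (55.9) and Mcm3 (47.4). The lowest were the flap endonuclease gene Fen1 (0.885 RPKM) and the transcription factor gene E2f2 (1.6 RPKM). The reading of Fen1 is uncertain: 84.2% of its exon bases are overlapped by genes on the opposite strand (Gm10143 and Tmem258 in the GENCODE M21 annotation of GRCm38), the strand setting of the counting is not given in the sources used here, and it had only 184 to 327 counts per library. The same holds in part for Gins2 (67.3% overlapped by Gse1), Chaf1a (52.5%, by Ubxn6), Ccne2 (17.4%, by Ints8), Rfc2 (15.1%, by Lat2), Rfc4 (12.7%, by Eif4a2), Orc1 (10.8%, by Gm12743) and Rfc5 (10.7%, by Wsb2). In Mcm7 12.6% is overlapped, partly by Ap4m1 and Cops6 on the opposite strand and partly by Mir25 and Mir93 on its own. All these shares are of M21 exon bases. For Chaf1a and Rfc2 the genes as counted had far fewer exon bases (3294 against 8854, and 1507 against 6303). Their shares therefore do not describe the bases counted.

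**Figure D1:**
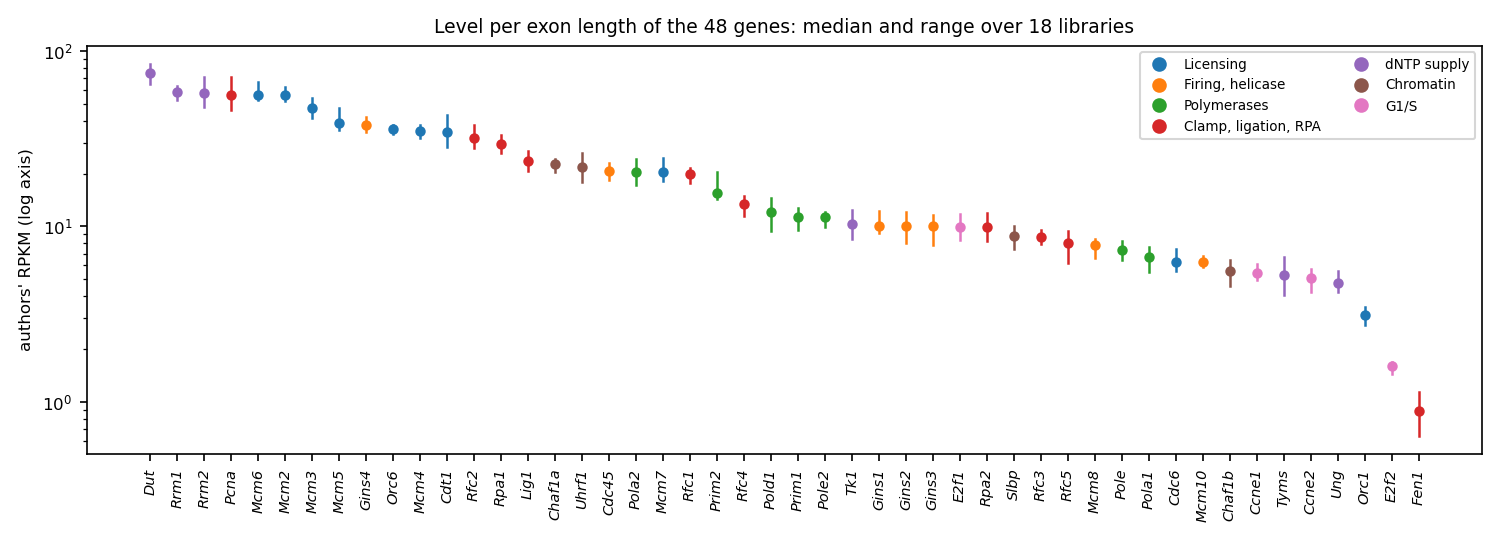
Authors' RPKM (log axis) of the 48 genes, with the median as a point and the lowest and highest of 18 libraries as a line, coloured by role. Dut (74.4) lies at one end and Fen1 (0.885) at the other.

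Under doxycycline 10 to 18 of the 48 genes fell in each comparison with untreated cells, none rose, and 26 were called in none of the 4 comparisons. Called means an adjusted p under 0.05 in edgeR's quasi-likelihood test with Benjamini-Hochberg adjustment over all genes tested. In APC-deleted cells 10 of 48 were lower at 24 h (background 3.77% of all genes lower) and 15 at 48 h (6.49%). In APC-intact cells 13 of 48 were lower at 24 h (background 4.25%) and 18 at 48 h (7.54%). No member was higher by edgeR (background higher 2.08% and 4.52% in APC-deleted cells and 1.39% and 3.81% in APC-intact cells at 24 and 48 h), none reached an unadjusted p under 0.05 in that direction, and DESeq2 called none higher, in any of the 4 comparisons. Of the 48 log2 fold changes, 40 and 42 were negative at 24 and 48 h in APC-deleted cells and 40 and 42 in APC-intact cells. Their medians were −0.11 and −0.11 in APC-deleted cells and −0.10 and −0.14 in APC-intact cells, while the medians of all genes lay between −0.0043 and 0.0005. The falls were small: the called members lay between −0.15 and −0.35, with Pcna in APC-intact cells at 48 h at the near end and Rrm2 in APC-intact cells at 24 h at the far end. The 24 h and 48 h comparisons of a line share their untreated libraries.

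Summed over the 48 genes, CPM (counts scaled to library size with TMM factors) in APC-deleted cells were 4576 to 4633 untreated, 4205 to 4244 at 24 h and 4193 to 4220.4 at 48 h. In APC-intact cells the sums were 4624 to 4682 untreated, 4149 to 4301 at 24 h and 4173 to 4275 at 48 h. Treated and untreated libraries did not overlap in either line, and the treated groups of both lines overlapped each other. The sums of nucleotide synthesis genes, given further below, were apart in both lines too. Gene by gene, no library of the treated group reached the untreated group for 30 members lower at 24 h in APC-deleted cells (background 17.5%) and 26 at 48 h (15%), and for 25 at 24 h in APC-intact cells (14%) and 31 at 48 h (22.7%). The treated group lay wholly above for 0 and 0 members in APC-deleted cells (background 16.1% and 10.6%) and 1 and 2 in APC-intact cells (8.56% and 20.4%). In bulk RNA, fewer cells in S phase and less of these mRNAs per cell cannot be told apart. As a sum, fibroblast markers moved the same way. Of the 9, 8 were tested, and Thy1 was at no more than 1 count. Their summed CPM in APC-deleted cells were 4210 to 4667 untreated, 3489 to 3597 at 24 h and 3426 to 3484 at 48 h. In APC-intact cells they were 3528 to 3722, 2851 to 2957 and 2728 to 2763 at the same times. Summed CPM of 10 haematopoietic markers, 4 of them tested, were 19.3 to 24.6 untreated, 16.3 to 17.3 at 24 h and 14.1 to 19.8 at 48 h in APC-deleted cells, where 48 h overlapped untreated, and 15.96 to 18.1, 12.2 to 12.5 and 10.7 to 11.7 in APC-intact cells. Those of the 10 epithelial markers were 5.80 to 6.30 untreated, 3.87 to 4.33 at 24 h and 4.02 to 4.85 at 48 h in APC-deleted cells, and 3.57 to 4.71, 2.10 to 3.11 and 3.26 to 3.75 in APC-intact cells, where 48 h overlapped untreated. Endothelial sums of treated and untreated libraries overlapped at both times in both lines. Abundant genes carry these sums, and single markers differed, here by mean CPM without TMM factors. Fap rose from 0.192 untreated to 0.311 at 24 h in APC-deleted cells and from 0.135 to 0.195 in APC-intact cells. Pdgfra was at 214 and 212 in APC-deleted cells. Cdh1 was lower at 24 h in both lines but higher at 48 h (1.22 to 1.58 and 1.05 to 1.45). Cd68 alone was at 20.4 and 15.3 in untreated APC-deleted and APC-intact cells. The part of these markers in the falls was not tested.

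**Figure D2:**
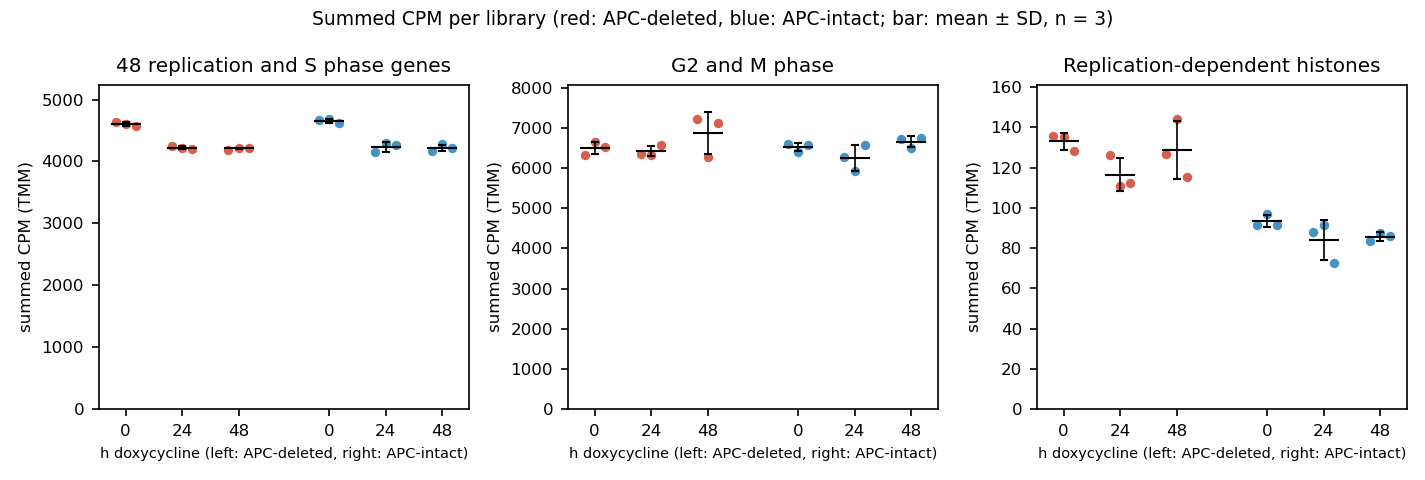
Summed CPM per library (points; bar and whisker, mean ± SD, n = 3) for the 48 genes, 32 genes of G2 and M phase and the replication-dependent histone genes, by hours of doxycycline, APC-deleted libraries left and APC-intact right. For the 48 genes every treated library (at most 4301) lies below every untreated one (at least 4576).

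The counts moved with the libraries in the fit. With the compared groups alone in it, 16 members were called at 24 h and 1 at 48 h (Rrm2) in APC-deleted cells, and in APC-intact cells 1 at 24 h (Rrm2) and 25 at 48 h. Among APC-deleted libraries the 24 h count of 10 became 6 without untreated replicate 1, 5 without 24 h replicate 1 and 6 without 24 h replicate 3, and the 48 h count of 15 became 9 without untreated replicate 1 or 48 h replicate 3. In APC-intact cells the 24 h count of 13 became 6, 5 and 7 without untreated replicates 1, 2 and 3, 5 and 6 without 24 h replicates 1 and 3, and 15 without 24 h replicate 2. The 48 h count of 18 became 10 without 48 h replicate 1 or 3. Without the pair of libraries that stood apart the counts were 14 and 21 in APC-deleted cells and 11 and 21 in APC-intact cells at 24 and 48 h, all lower. Rrm2 was the member whose call held in all 13 alternatives of each of the 4 comparisons. The 24 h comparison in APC-intact cells lies within 1 run designation, whereas the other 3 set one run against the other, so for these run and treatment cannot be told apart gene by gene. An additive fit of line, time and run, which gives 1 effect of each time over both lines, called 17 members lower at 24 h and 7 at 48 h (Gins2, Lig1, Mcm6, Mcm7, Pola2, Prim2 and Rrm2), and 0 higher.

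Among the 10 licensing genes, 5 fell in each of the 4 comparisons, namely Cdc6, Mcm3, Mcm5, Mcm6 and Mcm7. Of all genes 3.77% and 6.49% were lower in APC-deleted cells at 24 and 48 h, and 4.25% and 7.54% in APC-intact cells. The other 5 licensing genes (Orc1, Orc6, Cdt1, Mcm2 and Mcm4) were called in none. Mcm7 (ENSMUSG00000029730, chr5:138164583-138172422, mm10, minus strand) encodes a subunit of the MCM2-7 ring. Its APC-deleted libraries had 133, 130.3 and 132 CPM untreated, 117, 111 and 113 CPM at 24 h and 108, 117 and 109.9 CPM at 48 h. The APC-intact libraries had 143, 141 and 142 CPM untreated, 117, 126 and 119 CPM at 24 h and 116, 117 and 119 CPM at 48 h. No treated library of either line reached its untreated group. The log2 fold changes in APC-deleted cells were −0.22 ± 0.0445 (SE) at 24 h and −0.24 ± 0.0445 at 48 h (edgeR adjusted p = 0.00561 and 0.00168). In APC-intact cells they were −0.23 ± 0.0445 and −0.27 ± 0.0445 (edgeR adjusted p = 0.00332 and 4.24e-04).

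Mcm6 (ENSMUSG00000026355, chr1:128331591-128359656, minus strand), another subunit of the ring, had 243, 251 and 247 CPM untreated, 214, 212 and 214 CPM at 24 h and 211, 201 and 217 CPM at 48 h in APC-deleted cells. The APC-intact libraries had 247, 247 and 246 CPM untreated, 205, 214 and 220.1 CPM at 24 h and 209, 213 and 213 CPM at 48 h. The untreated libraries of both lines lay between 243 and 251 CPM and above every treated one, and the fold against untreated was 0.864 and 0.849 at 24 and 48 h in APC-deleted cells and 0.865 and 0.859 in APC-intact cells (edgeR adjusted p from 0.00108 to 0.00443). Mcm5 and Mcm3, further subunits, and Cdc6, the loader, fell by similar amounts: log2 −0.24 and −0.27, −0.18 and −0.23, and −0.20 and −0.25 in APC-deleted cells at 24 and 48 h. In APC-intact cells these were −0.23 and −0.24, −0.16 and −0.21, and −0.18 and −0.24.

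The other ring subunits were not called, but Mcm2 was close to it. Mcm2 had 262, 264 and 242 CPM untreated, 242, 231 and 237 CPM at 24 h and 239, 268 and 232 CPM at 48 h in APC-deleted cells. Its values in APC-intact cells were 273, 274 and 265 CPM untreated, 253, 258 and 247 CPM at 24 h and 238, 248 and 242 CPM at 48 h. In APC-deleted cells 48 h replicate 2, a library that stood apart, lay above all of its untreated libraries, and elsewhere treated and untreated libraries of Mcm2 did not overlap. Its log2 fold changes, from −0.16 (APC-intact, 48 h) to −0.054 (APC-deleted, 48 h), were not called (edgeR adjusted p from 0.0549 to 0.554). Mcm4, also a ring subunit, was at −0.11 ± 0.0474 and −0.13 ± 0.0475 in APC-deleted cells and −0.034 ± 0.0475 and −0.03 ± 0.0474 in APC-intact cells, with 95% intervals of −0.23 to −0.028 and −0.13 to 0.069 at 48 h. Mcm2 was called lower in APC-intact cells at 48 h by DESeq2, with the replicate block, with the compared groups alone and without the pair of libraries that stood apart, and in APC-deleted cells at 48 h without that pair. Mcm4 was called in 2 alternatives in APC-deleted cells, at 24 h with the compared groups alone and at 48 h without 48 h replicate 1. A difference between subunits was not tested. Cdt1, the loading factor that geminin restrains, was at −0.15 ± 0.0779 and −0.085 ± 0.078 in APC-deleted cells and at −0.10 ± 0.0781 and −0.22 ± 0.0782 in APC-intact cells, with an SE well above that of Mcm6. At 48 h in APC-intact cells Cdt1 was called lower in the same alternatives as Mcm2 and with no filter. In APC-deleted cells it was called lower at 24 h with the compared groups alone. At 48 h there it was called lower without replicate 2 and without the pair that stood apart. The origin recognition genes Orc1 and Orc6 ranged from −0.11 (Orc6, APC-deleted at 24 h) to 0.059 (Orc1, same comparison).

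**Figure D3:**
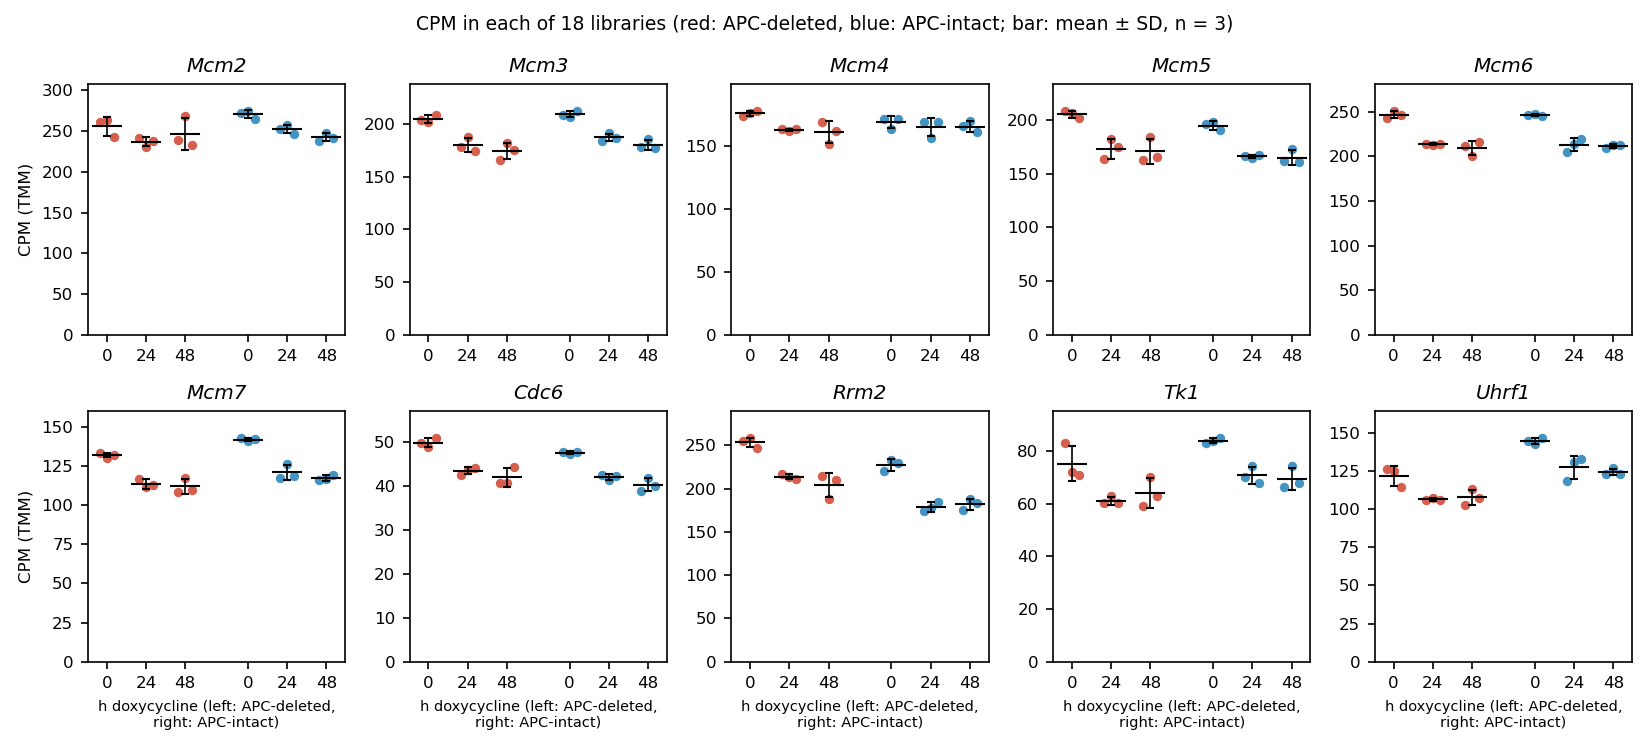
CPM of 10 genes in each of the 18 libraries (points; bar and whisker, mean ± SD, n = 3) by hours of doxycycline, APC-deleted left and APC-intact right. Mcm3, Mcm5, Mcm6, Mcm7, Cdc6, Rrm2, Tk1 and Uhrf1 drop at 24 h and stay down at 48 h in both lines, Mcm2 overlaps in APC-deleted cells at 48 h, and Mcm4 overlaps in APC-intact cells.

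MCM genes are known E2F targets, so the promoters of the 4 that were called are shown, with those of Mcm2, a ring gene not called, and of Rrm2, which has no match to the letters searched. These genes, and the others given library by library outside the 2 smallest adjusted p of each role, were chosen after their values were seen. The windows are RefSeq promoters on GRCm38.p6 from 250 bases before to 50 bases after the transcript start, each given 5′ to 3′ on the gene's own strand. Capitals mark stretches that match the E2F letters TTTCCCGC, TTTCGCGC, TTTGCCGC or TTTGGCGC on either strand, where matches may overlap in 1 stretch. The windows are chr1:20820263-20820562 (minus strand) for Mcm3, chr8:75109259-75109558 (plus strand) for Mcm5, chr1:128359656-128359955 (minus) for Mcm6, chr5:138171834-138172133 (minus) for Mcm7, chr6:88898731-88899030 (minus) for Mcm2 and chr12:24708004-24708303 (plus) for Rrm2.
Mcm3: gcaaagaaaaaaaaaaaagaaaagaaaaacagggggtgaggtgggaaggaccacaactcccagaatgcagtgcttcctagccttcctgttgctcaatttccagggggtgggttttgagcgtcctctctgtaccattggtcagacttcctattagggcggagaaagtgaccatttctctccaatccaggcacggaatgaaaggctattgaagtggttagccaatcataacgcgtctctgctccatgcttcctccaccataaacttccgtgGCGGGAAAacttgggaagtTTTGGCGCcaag
Mcm5: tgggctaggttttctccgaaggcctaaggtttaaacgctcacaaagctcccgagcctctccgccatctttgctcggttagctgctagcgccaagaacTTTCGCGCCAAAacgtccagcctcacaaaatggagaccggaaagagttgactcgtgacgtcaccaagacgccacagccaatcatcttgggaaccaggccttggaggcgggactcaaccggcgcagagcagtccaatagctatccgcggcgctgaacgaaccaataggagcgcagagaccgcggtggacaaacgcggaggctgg
Mcm6: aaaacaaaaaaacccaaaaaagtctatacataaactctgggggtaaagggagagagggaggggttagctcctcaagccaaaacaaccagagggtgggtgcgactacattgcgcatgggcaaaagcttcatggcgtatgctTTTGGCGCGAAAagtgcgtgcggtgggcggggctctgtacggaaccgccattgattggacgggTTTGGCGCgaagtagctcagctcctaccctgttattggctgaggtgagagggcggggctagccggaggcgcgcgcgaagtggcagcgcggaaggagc
Mcm7: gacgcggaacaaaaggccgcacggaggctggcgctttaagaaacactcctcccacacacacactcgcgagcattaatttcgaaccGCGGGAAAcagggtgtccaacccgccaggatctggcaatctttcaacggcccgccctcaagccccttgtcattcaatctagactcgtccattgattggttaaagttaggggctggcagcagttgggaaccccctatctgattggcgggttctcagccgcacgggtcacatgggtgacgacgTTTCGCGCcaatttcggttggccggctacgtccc
Mcm2: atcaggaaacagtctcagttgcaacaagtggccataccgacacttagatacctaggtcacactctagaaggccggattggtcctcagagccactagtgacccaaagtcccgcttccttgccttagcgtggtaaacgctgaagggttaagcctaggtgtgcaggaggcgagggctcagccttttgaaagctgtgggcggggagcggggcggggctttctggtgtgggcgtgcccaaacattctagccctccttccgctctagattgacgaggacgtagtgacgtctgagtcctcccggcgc
Rrm2: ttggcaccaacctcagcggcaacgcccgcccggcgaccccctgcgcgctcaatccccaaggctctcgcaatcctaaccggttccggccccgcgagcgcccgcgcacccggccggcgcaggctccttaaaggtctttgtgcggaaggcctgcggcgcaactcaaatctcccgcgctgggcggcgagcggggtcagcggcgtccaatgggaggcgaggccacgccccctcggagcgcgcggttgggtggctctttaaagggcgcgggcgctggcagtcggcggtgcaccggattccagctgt

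Of the 48 genes, 40 matched at least 1 window, 46 windows in all. The E2F letters were in 16 of these 46 windows (34.8%, from 16 genes), against 744 of all 32851 windows (2.26%) and 3.78% of the windows of genes tested. Among matched genes that fell at 24 h in APC-intact cells 7 of 11 had a match, against 9 of 29 of those not called there. Over the 4 comparisons with untreated cells the contrast was smaller, 9 of 19 genes called at least once against 7 of 21 never called. The CCAAT letters were in 58.7% of the members' windows and 37.4% of all windows, and the letters TTTGAA, known as the CHR of genes of the later cell cycle, in 10.9% and 17.9%, both strands searched. Windows of genes tested held them in 37.8% and 12.0%. A match is a description of letters in the window, and the Mcm7 gene has a second window without one. Rrm2, whose call held in every alternative, has no match, nor has Mcm2, which was not called, and nothing about the factor is drawn from either.

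Of the 7 genes of origin firing and the active helicase, 0 and 1 fell in APC-deleted cells at 24 and 48 h (all genes 3.77% and 6.49%), and 1 and 3 in APC-intact cells (4.25% and 7.54%). A count of 0 or 1 among so few cannot be set apart from these shares. Gins2 (ENSMUSG00000031821, chr8:120578633-120589304, minus strand) encodes a subunit of the GINS complex. It had 63.6, 64.96 and 59.7 CPM untreated, 56.8, 56.5 and 59.2 CPM at 24 h and 51.3, 55.6 and 50.4 CPM at 48 h in APC-deleted cells. APC-intact libraries held 54.4, 56.3 and 53.98 CPM untreated, 43.3, 53.1 and 44.4 CPM at 24 h and 44.4, 45.6 and 43.8 CPM at 48 h. No treated library reached its untreated group, though APC-deleted 24 h replicate 3 and APC-intact 24 h replicate 2 came within 1 CPM of it. The log2 fold changes were −0.13 ± 0.0636 and −0.26 ± 0.0638 in APC-deleted cells (edgeR adjusted p = 0.28 and 0.012) and −0.23 ± 0.064 and −0.30 ± 0.064 in APC-intact cells (edgeR adjusted p = 0.0432 and 0.00465). The overlap with Gse1 on the opposite strand may have taken reads from it as ambiguous or added reads to it. Which of these applies was not tested.

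Mcm10, which helps to open the helicase, had 65.99, 66.2 and 62.9 CPM untreated, 63.4, 66.5 and 64.5 CPM at 24 h and 60.8, 61.2 and 62.03 CPM at 48 h in APC-deleted cells. In APC-intact cells it had 68.5, 67.9 and 68.6 CPM untreated, 61.1, 63.2 and 64.7 CPM at 24 h and 61.7, 61.8 and 60.1 CPM at 48 h. It fell in APC-intact cells at 48 h (−0.16 ± 0.042, edgeR adjusted p = 0.0193), and APC-deleted 24 h libraries overlapped the untreated ones. Gins1, another GINS subunit, also fell there (−0.24 ± 0.0696, edgeR adjusted p = 0.0283). Cdc45, the helicase partner of GINS, was at 0.023 and −0.063 in APC-deleted cells and at −0.085 and −0.093 in APC-intact cells, and Gins3, Gins4 and Mcm8, a helicase gene of recombination, were not called either.

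Of the 7 polymerase and primase genes, 0 and 2 fell in APC-deleted cells at 24 and 48 h (all genes 3.77% and 6.49%) and 2 and 3 in APC-intact cells (4.25% and 7.54%). Those called most often belong to the complex that starts each strand: Prim2 encodes the large primase subunit and Pola2 the regulatory subunit of DNA polymerase alpha. Prim2 (ENSMUSG00000026134, chr1:33453811-33669786, minus strand) had 45.4, 43.2 and 42.1 CPM untreated, 38.6, 41.3 and 40.03 CPM at 24 h and 39.3, 37.2 and 38.98 CPM at 48 h in APC-deleted cells. The APC-intact libraries had 45.5, 52.1 and 46.9 CPM untreated, 40.2, 39.98 and 39.5 CPM at 24 h and 39.02, 38.3 and 39.1 CPM at 48 h. Treated and untreated libraries were apart in both lines. The log2 fold changes were −0.12 ± 0.0522 and −0.18 ± 0.0524 in APC-deleted cells (edgeR adjusted p = 0.186 and 0.0331), and −0.27 ± 0.0523 and −0.31 ± 0.0522 in APC-intact cells (edgeR adjusted p = 0.00325 and 5.50e-04). The difference between the lines was 0.15 at 24 h (95% interval −0.0069 to 0.30) and 0.13 at 48 h (−0.022 to 0.29), not called by edgeR (adjusted p = 1.00 and 0.783).

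Pola2 (ENSMUSG00000024833, chr19:5940543-5964206, minus strand) had 89.9, 86.9 and 87.7 CPM untreated, 77.2, 85.6 and 80.7 CPM at 24 h and 72.4, 79.5 and 75.2 CPM at 48 h in APC-deleted cells. Its values in APC-intact cells were 77.5, 81.9 and 81.1 CPM untreated, 67.1, 70.8 and 70.02 CPM at 24 h and 66.7, 67.7 and 65.5 CPM at 48 h. Its groups were also apart, with folds of 0.921 and 0.859 in APC-deleted cells (edgeR adjusted p = 0.178 and 0.00641) and 0.865 and 0.832 in APC-intact cells (0.0143 and 0.00139, same test). Among the other genes of this group, Pold1, the catalytic subunit of polymerase delta, fell in APC-intact cells at 48 h (−0.28 ± 0.0777, edgeR adjusted p = 0.0231). Prim1, the small primase subunit, ranged from −0.15 to −0.043, Pola1, the catalytic subunit of polymerase alpha, from −0.056 to 0.15, Pole, of polymerase epsilon, from 0.011 to 0.07 and its accessory subunit gene Pole2 from −0.082 to 0.044, none of them called. With only the APC-intact untreated and 48 h libraries in the fit Pola1 was called higher, the one member so called in any alternative of the 4 comparisons.

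Of the 10 genes of the clamp, clamp loader, ligation and single-strand binding, 2 fell at each time in APC-deleted cells (all genes 3.77% and 6.49%), and 2 and 3 at 24 and 48 h in APC-intact cells (4.25% and 7.54%). Pcna (ENSMUSG00000027342, chr2:132249162-132253314, minus strand) encodes the sliding clamp that tethers polymerases. It had 178, 170.0 and 168 CPM untreated, 152, 152 and 147 CPM at 24 h and 157, 159.6 and 152 CPM at 48 h in APC-deleted cells. APC-intact libraries held 209.6, 222 and 203 CPM untreated, 188, 175 and 182 CPM at 24 h and 182, 195 and 195 CPM at 48 h. Treated libraries were below untreated ones throughout, with log2 fold changes of −0.20 ± 0.0479 and −0.14 ± 0.0479 in APC-deleted cells (edgeR adjusted p = 0.0183 and 0.0671) and −0.22 ± 0.0479 and −0.15 ± 0.0479 in APC-intact cells (edgeR adjusted p = 0.00849 and 0.0484). The APC-deleted 48 h value was not called.

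Lig1 (ENSMUSG00000056394, chr7:13277283-13311433, plus strand) encodes the ligase that seals Okazaki fragments. It had 144, 144 and 150.3 CPM untreated, 132, 138 and 137 CPM at 24 h and 131, 132 and 132 CPM at 48 h in APC-deleted cells. In APC-intact cells it had 139, 134 and 137 CPM untreated, 117, 123 and 119 CPM at 24 h and 116, 117 and 116 CPM at 48 h. Here too no treated library reached the untreated ones, and the log2 fold changes were −0.11 ± 0.0403 and −0.15 ± 0.0403 in APC-deleted cells (edgeR adjusted p = 0.129 and 0.0187) and −0.18 ± 0.0403 and −0.23 ± 0.0403 in APC-intact cells (0.0087 and 9.47e-04). Of the loader genes, Rfc4 fell in APC-deleted cells at 24 h (−0.27 ± 0.0576, edgeR adjusted p = 0.00828) and Rfc3 in APC-intact cells at 48 h (−0.18 ± 0.0543, 0.0362), while Rfc1, Rfc2 and Rfc5 were not called. Rpa2, a subunit of the single-strand binding protein, fell in APC-deleted cells at 48 h (−0.22 ± 0.0664, edgeR adjusted p = 0.0418) and was at −0.20 and −0.17, uncalled, in APC-intact cells. Rpa1, its largest subunit, lay between −0.091 and −0.057.

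Nucleotide supply held the member with the largest fall in APC-intact cells. Of 6 genes, 2 and 3 fell in APC-deleted cells at 24 and 48 h (all genes 3.77% and 6.49%) and 2 at each time in APC-intact cells (4.25% and 7.54%). Rrm2 (ENSMUSG00000020649, chr12:24708241-24714146, plus strand), the S phase subunit of ribonucleotide reductase, had 255, 258 and 247 CPM untreated, 217, 213 and 212 CPM at 24 h and 215, 188 and 210.0 CPM at 48 h in APC-deleted cells. The APC-intact libraries had 220.2, 233 and 229 CPM untreated, 174, 178 and 185 CPM at 24 h and 175, 188 and 183 CPM at 48 h. Every treated library lay below every untreated one of its line. The folds were 0.844 and 0.806 in APC-deleted cells (log2 −0.24 ± 0.0506 and −0.31 ± 0.0507, edgeR adjusted p = 0.00567 and 5.16e-04) and 0.786 and 0.8 in APC-intact cells (log2 −0.35 ± 0.0507 and −0.32 ± 0.0507, 2.73e-04 and 2.86e-04). Its partner gene Rrm1 was at −0.12 and −0.11 in APC-deleted cells and −0.15 and −0.08 in APC-intact cells, not called in the main fit. At 24 h Rrm1 was called lower by DESeq2 in APC-intact cells and in the additive fit with run. In APC-deleted cells at 24 h it was called lower with the compared groups alone and without the pair of libraries that stood apart.

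Tk1 (ENSMUSG00000025574, chr11:117815526-117826092, minus strand), the salvage thymidine kinase, had 82.97, 72.2 and 70.8 CPM untreated, 60.4, 62.9 and 60.3 CPM at 24 h and 59.2, 70.3 and 62.8 CPM at 48 h in APC-deleted cells. Its values in APC-intact cells were 83.1, 83.7 and 84.9 CPM untreated, 70.2, 74.4 and 67.7 CPM at 24 h and 66.3, 74.3 and 67.9 CPM at 48 h. Its APC-deleted 48 h replicate 2 came within 1 CPM of the lowest untreated library, and untreated replicate 1 was the highest by over 10 CPM. The log2 fold changes were −0.30 ± 0.0673 and −0.23 ± 0.0674 in APC-deleted cells (edgeR adjusted p = 0.0109 and 0.0316) and −0.25 ± 0.0673 and −0.27 ± 0.0672 in APC-intact cells (0.0351 and 0.0129). Thymidylate synthase, Tyms, fell in APC-deleted cells at 48 h (−0.26 ± 0.0617, edgeR adjusted p = 0.00955) and was at −0.19, −0.21 and −0.17 in the other comparisons (adjusted p from 0.0553 to 0.0789, same test). DESeq2 and the fit with the replicate block called Tyms lower in those comparisons too. Dut and Ung, which keep uracil out of DNA, ranged from −0.17 to 0.029 (Ung) and were not called.

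Of the 4 genes of chromatin assembly and histone mRNA, 1 and 2 fell in each line at 24 and 48 h (all genes 3.77% and 6.49% in APC-deleted cells and 4.25% and 7.54% in APC-intact cells). Uhrf1 (ENSMUSG00000001228, chr17:56303321-56323486, plus strand), which brings DNA methyltransferase to newly copied DNA, had 126, 125 and 114 CPM untreated, 106, 107 and 106 CPM at 24 h and 103, 113 and 107 CPM at 48 h in APC-deleted cells. APC-intact libraries held 145, 143 and 146 CPM untreated, 119, 131 and 132 CPM at 24 h and 123, 127 and 123 CPM at 48 h. The treated libraries were again below the untreated ones, with log2 fold changes of −0.20 ± 0.0515 and −0.18 ± 0.0515 in APC-deleted cells (edgeR adjusted p = 0.0279 and 0.0312) and −0.18 ± 0.0514 and −0.22 ± 0.0514 in APC-intact cells (0.0401 and 0.00971). Of the chromatin assembly factor genes, Chaf1a fell in APC-intact cells at 48 h (−0.17 ± 0.0478, edgeR adjusted p = 0.023) and Chaf1b in APC-deleted cells at 48 h (−0.18 ± 0.053, 0.0383). Chaf1a was counted at 90.95, 103 and 93.7 CPM in the APC-deleted 48 h libraries, against 103, 102 and 101 CPM untreated, so replicate 2 overlapped. Slbp, which binds the end of histone mRNAs, was at 0.018 and −0.00048 in APC-deleted cells and 0.074 and 0.089 in APC-intact cells.

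The 4 regulators of S phase entry were not called in any comparison, though E2f1 was in some alternatives. E2f1, an E2F activator, had 38.6, 40.2 and 40.4 CPM untreated, 39.9, 41.4 and 38.1 CPM at 24 h and 35.5, 49.3 and 35.2 CPM at 48 h in APC-deleted cells. In APC-intact cells it had 45.9, 47.6 and 46.2 CPM untreated, 46.6, 47.8 and 41.3 CPM at 24 h and 43.4, 43.8 and 40.6 CPM at 48 h. Treated and untreated libraries overlapped except in APC-intact cells at 48 h, where the log2 fold change was −0.13 ± 0.0924 (edgeR adjusted p = 0.393). The APC-deleted 48 h value turned on replicate 2: it was 0.0073 ± 0.0928 with it and −0.18 without it, where edgeR called it lower (adjusted p = 0.0497, and from 0.0344 to 1.00 over the other alternatives). E2f1 was also called lower in APC-intact cells at 48 h with the compared groups alone in the fit. Between the lines it was called lower in APC-deleted cells, untreated, in that kind of fit, with the replicate block and without the pair of libraries that stood apart, and at 48 h without that pair or without APC-deleted 48 h replicate 2. E2f2, a related activator, had 9.57, 10.5 and 10.4 CPM at 48 h, against 10.6, 9.25 and 10.3 CPM untreated, in APC-deleted cells, with overlap. The cyclin E genes Ccne1 and Ccne2, partners of CDK2 at the G1/S step, lay between −0.084 and 0.0093. By edgeR and DESeq2, 0 of the 4 genes were called in the 4 comparisons with untreated cells, and 0 reached an unadjusted p under 0.05. Of all genes 3.77% and 6.49% were lower by edgeR in APC-deleted cells at 24 and 48 h, and 4.25% and 7.54% in APC-intact cells. A count of 0 among 4 genes cannot be set apart from these shares.

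**Figure D4:**
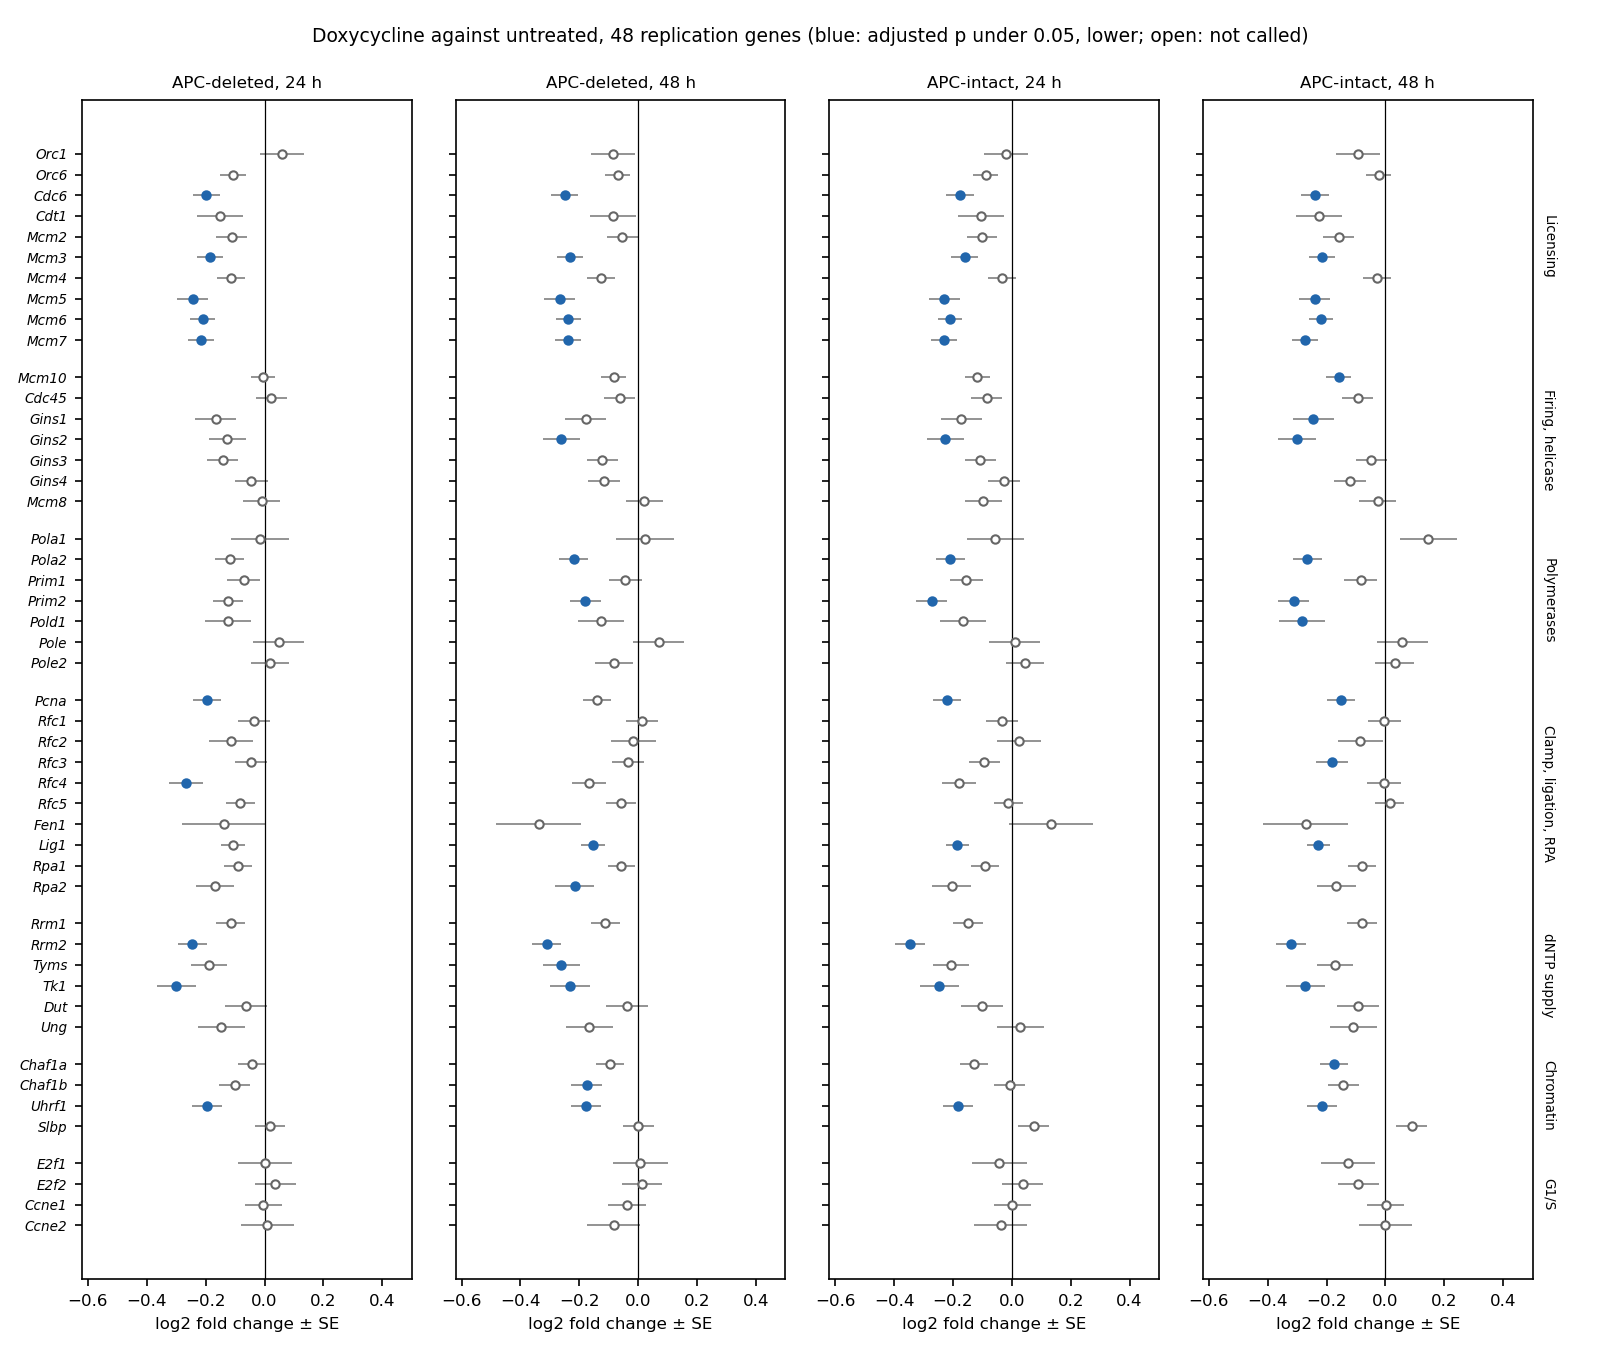
Log2 fold change ± SE (edgeR) of the 48 genes, treated against untreated, with both times of the APC-deleted line left and those of the APC-intact line right, in order of role. Filled points are lower with adjusted p under 0.05 (10, 15, 13 and 18 from left to right) and open points are not called; most points lie left of 0, the G1/S regulators near it.

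The members that fell in one line largely fell in the other. The lines have separate libraries, but both untreated groups carry the first run designation and both 48 h groups the second. At 48 h a fall shared by the lines therefore cannot be told apart from run. At 24 h 9 were called in both, which is 90% of the 10 in APC-deleted cells and 69.2% of the 13 in APC-intact cells: Cdc6, Mcm3, Mcm5, Mcm6, Mcm7, Pcna, Rrm2, Tk1 and Uhrf1. At 48 h 12 were shared, 80% of 15 and 66.7% of 18. The matching share over all called genes was not counted. The difference of the response itself, APC-deleted minus APC-intact, was called for 0 of 48 members at 24 h (background 0.00666%) and 0 at 48 h (0.0267%) by edgeR, with 0 at an unadjusted p under 0.05 and 0 by DESeq2 at both times. The run cancels in the 48 h difference but not in the 24 h one. These tests bound the difference only loosely: at 48 h the 95% interval reached 0.161 to either side on the log2 scale at the median over members, and 0.119 to 0.423 over all of them, which is as large as many of the falls. For Mcm6 the 48 h difference was −0.018 (−0.14 to 0.11), for Rrm2 0.01 (−0.14 to 0.16) and for Cdc6 −0.01 (−0.15 to 0.13).

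From 24 to 48 h the replication genes in APC-deleted cells did not move further by the test. Within 1 run designation, 0 of 48 were called by edgeR (background 0.52%), 1 reached an unadjusted p under 0.05 (Gins2, −0.13 ± 0.0638) and DESeq2 called 0. The median of the 48 log2 differences was −0.019, and the summed CPM of the 48 h libraries overlapped those at 24 h. CPM at 48 h lay wholly below those at 24 h for 6 members (background 7.22%) and wholly above for 0 (5.59%). The 95% interval of the change was −0.11 to 0.061 for Mcm6 and −0.17 to 0.039 for Rrm2.

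Between the lines the 48 genes went both ways. Without doxycycline 4 of 48 were higher in APC-deleted cells (background 13.4%) and 7 lower (13.8%), with a median of −0.017. At 48 h 8 were higher (17.8%) and 7 lower (16.8%), with a median of −0.0082. Counting groups that do not overlap, 17 were lower and 11 higher without doxycycline (background 24.8% and 24.5%), and 8 and 11 at 48 h (22.2% and 22.4%). Called members thus made up shares near or below those of all genes, and so did non-overlapping ones except the 17 of 48 lower without doxycycline, whose share lies above its background. Of the 8 fibroblast markers tested 5 were higher in APC-deleted cells and 0 lower, both untreated and at 48 h, and their part in these differences was not tested. Both comparisons lie within 1 run designation. The untreated count of 11 became 7 without APC-deleted untreated replicate 2 and 21 with only those groups in the fit, and without the pair of libraries that stood apart the counts were 16 and 17.

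Single members still differed clearly between the lines. Rfc5, a clamp loader subunit (ENSMUSG00000029363, chr5:117378103-117389047, minus strand), had 44.6, 43.6 and 41.6 CPM in untreated APC-deleted libraries, against 55.1, 56.8 and 56.5 CPM in untreated APC-intact libraries. At 48 h it had 39.02, 44.6 and 41.3 CPM in APC-deleted libraries, against 54.6, 57.7 and 57.8 CPM in APC-intact libraries. The lines did not overlap, and the log2 fold change was −0.38 ± 0.05 untreated and −0.45 ± 0.0501 at 48 h (edgeR adjusted p = 9.88e-06 and 8.49e-07).

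Tyms had 42.6, 41.4 and 38.2 CPM in untreated APC-deleted libraries, against 47.7, 53.2 and 50.03 CPM in untreated APC-intact libraries. At 48 h it had 33.3, 33.7 and 34.9 CPM in APC-deleted libraries, against 41.6, 48.8 and 43.5 CPM in APC-intact libraries. The lines were apart at both times (−0.31 ± 0.0612 and −0.39 ± 0.0616, edgeR adjusted p = 8.26e-04 and 5.13e-05). Also lower were Gins3, a GINS subunit, at −0.28 ± 0.0522 untreated and −0.36 ± 0.0525 at 48 h, Slbp at −0.25 ± 0.0526 and −0.34 ± 0.0527, Pcna at −0.30 ± 0.0479 and −0.29 ± 0.048 and Uhrf1 at −0.25 ± 0.0514 and −0.21 ± 0.0515 (edgeR adjusted p from 2.55e-05 to 0.00337). These 4 with Rfc5 and Tyms made up 6 of the 7 lower members at either time (85.7% of each).

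In the other direction, Rpa1 had 240.0, 237 and 241 CPM in untreated APC-deleted libraries, against 212, 211 and 205 CPM in untreated APC-intact libraries. At 48 h it had 236, 218 and 237 CPM in APC-deleted libraries, against 197, 199.8 and 198 CPM in APC-intact libraries. It was higher without overlap at both times (0.19 ± 0.0469 and 0.22 ± 0.0469, edgeR adjusted p = 0.00406 and 0.0012). Rrm2 (0.16 ± 0.0506 and 0.17 ± 0.0507), Gins2 (0.19 ± 0.0637 and 0.23 ± 0.0641) and Pola2 (0.14 ± 0.049 and 0.18 ± 0.0491) were also higher at both times (edgeR adjusted p from 0.00634 to 0.0425), so all 4 of the untreated calls were among the 8 at 48 h (50%). With single libraries left out the 4 untreated calls became 1 to 3, and Rpa1 was the one left without APC-intact untreated replicate 1 or APC-deleted untreated replicate 2. Over 13 alternatives the untreated call of Pola2 was lost in 7 and that of Gins2 in 5. Cdt1 was called higher at 48 h, at 103, 125 and 98.2 CPM in APC-deleted libraries against 82.3, 88.8 and 84.9 CPM in APC-intact libraries (0.35 ± 0.0782, edgeR adjusted p = 0.00165).

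**Figure D5:**
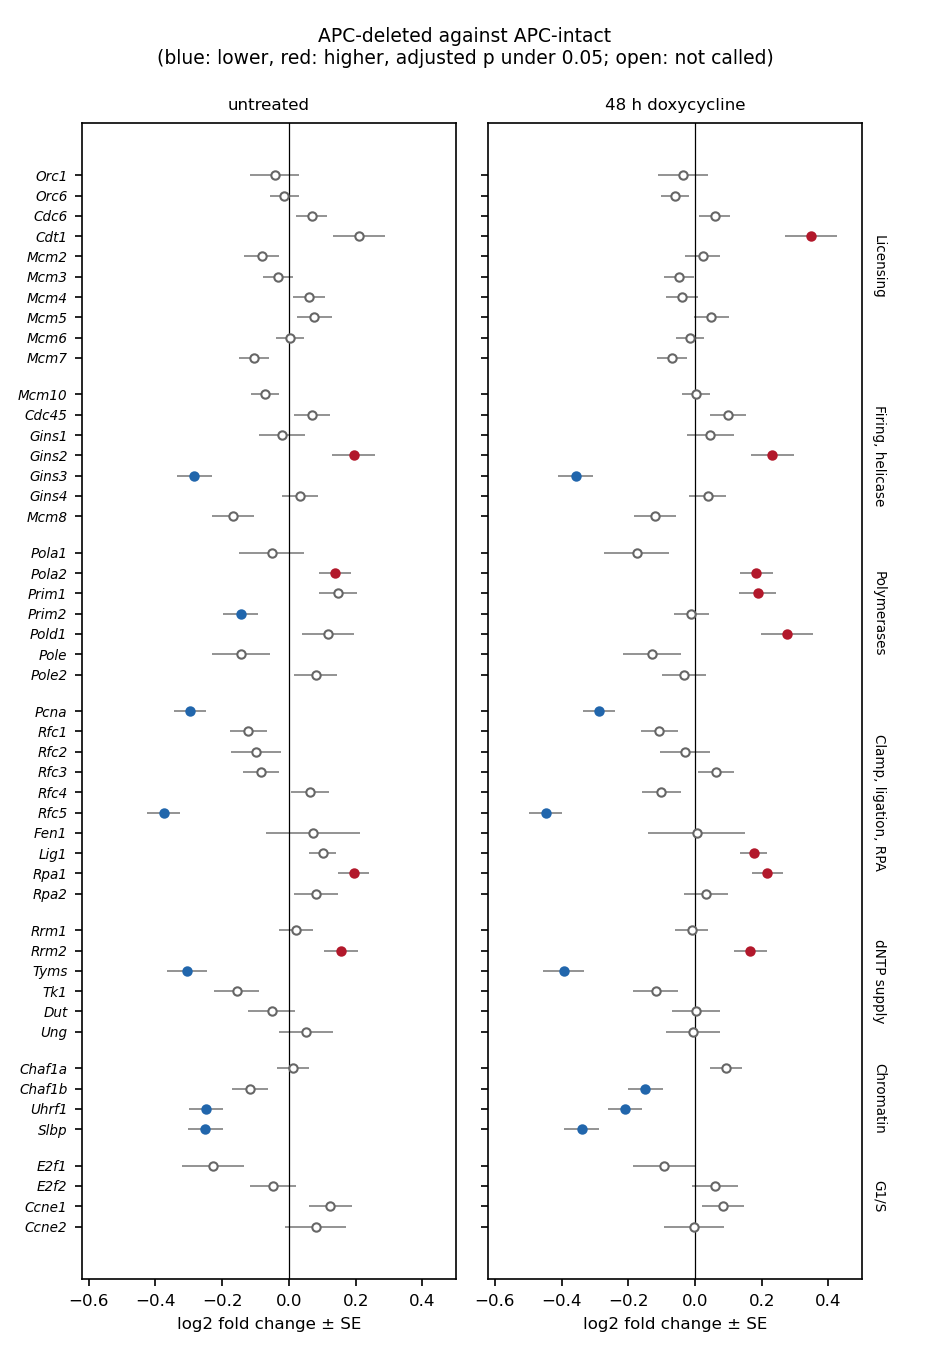
Log2 fold change ± SE (edgeR) of the 48 genes, APC-deleted against APC-intact, untreated (left) and at 48 h of doxycycline (right). Blue points are lower (7 and 7) and red points higher (4 and 8) with adjusted p under 0.05, open points are not called.

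Lists of other cell cycle and replication genes were read beside the 48. In the same comparisons 3.77% and 6.49% of all genes were lower in APC-deleted cells at 24 and 48 h, and 4.25% and 7.54% in APC-intact cells. The shares higher were 2.08% and 4.52% in APC-deleted cells and 1.39% and 3.81% in APC-intact cells. Counts of 1 or 2 in lists of this size lie near such shares. Of 37 further replication factors 0 and 3 were higher and 0 and 0 lower in APC-deleted cells at 24 and 48 h, and 0 and 0 higher and 1 and 3 lower in APC-intact cells, with medians from −0.027 to 0.025. Those higher in APC-deleted cells were Cdc7, the kinase that fires origins (0.36 ± 0.0907), the nuclease gene Dna2 (0.32 ± 0.0889) and the helicase gene Recql4 (0.29 ± 0.0805), with edgeR adjusted p from 0.0135 to 0.0265. Of 28 other G1/S control genes 2 and 4 were lower and 0 and 1 higher in APC-deleted cells at 24 and 48 h, and 1 and 3 lower and none higher in APC-intact cells, with medians from −0.040 to −0.0021. Among them the CDK inhibitor gene Cdkn2c was lower in 3 comparisons and the kinase gene Cdk4 in APC-deleted cells at 48 h, and Ccnd1, the gene of cyclin D1, fell in all 4 comparisons, by 0.25 and 0.24 on the log2 scale in APC-deleted cells and 0.22 and 0.22 in APC-intact cells. Nucleotide synthesis genes (28 tested) were lower in 1 and 4 in APC-deleted cells and 2 and 3 in APC-intact cells at 24 and 48 h. Their summed CPM in APC-deleted cells were 3823 to 3866 untreated, 3699 to 3725 at 24 h and 3580 to 3783 at 48 h. The APC-intact sums were 3628 to 3672, 3260 to 3481 and 3473 to 3513. Treated and untreated libraries were thus apart in both lines, as for the 48 genes. Sums of the G1/S control genes were apart except in APC-deleted cells at 24 h, and those of the 37 further factors overlapped throughout.

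Genes of G2 and M phase, 32 in number, were lower in 1 and 0 in APC-deleted cells and in 7 and 6 in APC-intact cells at 24 and 48 h, none higher, with medians of −0.034, 0.042, −0.097 and −0.056 in that order. Cdc20, the activator of the anaphase-promoting complex, fell by 0.22 in APC-deleted cells and by 0.29 in APC-intact cells at 24 h. The difference between the lines was called by edgeR for 0 of the 32 at 24 or 48 h, with 3 and 6 at an unadjusted p under 0.05. Replication-dependent histone genes (43 of 60 listed were tested) were not called in any comparison with untreated cells by edgeR, with 2 to 4 at an unadjusted p under 0.05. As a sum they still lay lower in part. Their summed CPM in APC-deleted cells were 128 to 136 untreated, 111 to 126 at 24 h and 115 to 144 at 48 h, where 48 h overlapped untreated. The APC-intact sums were 91.44 to 96.8 untreated, 72.6 to 91.25 at 24 h and 83.5 to 87.7 at 48 h, without overlap. Of these 43, 10 and 11 were higher in APC-deleted than in APC-intact cells without doxycycline and at 48 h. The shares of all genes higher there were 13.4% and 17.8%. Histone mRNAs of this kind mostly lack a poly(A) tail, and how RNA was selected is not given in the sources used here. Genes of the replication checkpoint and recombination (19 tested) gave 0 and 0 higher and 2 and 1 lower in APC-deleted cells, and 0 and 1 higher and 0 and 0 lower in APC-intact cells. p53 targets (18 tested) gave 2 and 2 higher and 1 and 2 lower in APC-deleted cells and 1 and 0 higher and 2 and 3 lower in APC-intact cells at the same times.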

How the data were processed

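RNA-seq counts of 18 MC38 libraries were analysed. Per the submitters' processing notes the authors used STAR, HTSeq and mm10; the annotation and strand setting are not given in the sources used here. The deposited tables hold a raw read count per gene and the authors' RPKM, which works out as the count scaled by exon length and by the sum of all table entries. HTSeq summary entries that name no gene (22.9% to 25.5% of a library) entered neither the library sizes nor any test. RPKM served for levels between genes only.

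Genes were filtered with filterByExpr by group (15006 kept), scaled by TMM and fitted in edgeR 4.0.16 (R 4.3.3) with 1 coefficient per group over all 18 libraries and the robust quasi-likelihood test; 9 comparisons were made and p-values were adjusted by Benjamini-Hochberg over all genes tested, at a threshold of 0.05. CPM are TMM-scaled. The common biological coefficient of variation was 8.33%. DESeq2 1.42.0, its size factors in edgeR, no filter, the replicate block, a run term, only the groups compared and left-out libraries were the alternatives. A simulation of the APC-intact 24 h comparison on 14745 genes gave back 68 of 100 genes set to a 1.25-fold change, and 99 of 100 set to 1.5-fold, with edgeR. It took the spread of each gene from the trend over genes, held no library that stood apart and left genes of low CPM unchanged. Recovery in the real libraries may therefore differ.

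The 48 genes and all other lists were chosen with earlier results of these data known. Genes described library by library are the 2 with the smallest adjusted p of each role at 24 h in APC-intact cells, and others named as chosen after their values were seen. Other lists are described by counts and genes past the threshold. Replicates of a group differed by more than sampling noise (chi-square per degree of freedom 7.47 to 75.2). In no comparison did all same-numbered libraries deviate together, so the numbers were not taken to pair them.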

Additional observations from a re-analysis of the deposited data

How the results depend on the processing

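Counts of members called, all of them lower under doxycycline in each alternative unless named, moved as follows. In APC-deleted cells the 24 h count of 10 was 5 to 9 with single libraries left out, 17 with the run term and 16 when the fit held the compared groups alone, and the 48 h count of 15 was 9 to 20, 7 and 1 in the same order. In APC-intact cells the 24 h count of 13 was 5 to 15 with single libraries left out, 17 with the run term and 1 with the compared groups alone; the 48 h count of 18 was 10 to 16, 7 and 25, the last including Pola1 as higher. Between the lines the untreated count of 11 was 7 to 10, 19 and 21, and the 48 h count of 15 was 13 to 16, 19 and 11. The fit with the run term holds 1 effect of each time and 1 of line. Its counts of 17, 7 and 19 are thus each 1 estimate, not a check of each line or time. That fit separates run from time only by taking both lines to respond alike. The cause of these shifts was not tested. With DESeq2 size factors, no filter and DESeq2 in turn, the counts at 24 and 48 h were 10, 9 and 12 and 15, 13 and 17 in APC-deleted cells, and 11, 9 and 17 and 18, 16 and 21 in APC-intact cells. The replicate block gave 11 and 15 in APC-deleted cells, 14 and 22 in APC-intact cells and 14 and 15 between the lines; within the pairs of groups compared, same-numbered libraries correlated at −0.088 to 0.12, and in no comparison were all over 0.1, so the numbers were not taken as pairs. The comparison of 48 with 24 h and both differences of response had 0 members called in all of their 12, 18 and 18 alternatives. E2f1 in APC-deleted cells at 48 h (0.0073) lay between −0.18 and 0.092 with single libraries left out, −0.18 being without 48 h replicate 2, and was −0.19 without both libraries that stood apart. Of all single-gene values, 5730 stayed on their side of the threshold, 411 of them, all uncalled, with the other sign; 207 were no longer past it, 109 newly were, and the 2 of E2f1 became calls with the other sign. Of the smaller fold changes simulated, near the largest falls here, 68 of 100 were recovered, so smaller ones can be missed. The simulated libraries lacked the gene-by-gene spread and the deviating libraries of the real ones, so this share is not that of the real comparison.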

Other observations

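Over the 18 libraries, members were not equally alike: the correlation of a member's log CPM with the mean of the other members was highest for Mcm6 (0.941), Mcm7 (0.929), Mcm3 (0.923) and Prim2 (0.891) and lowest for Pole (−0.249) and Pola1 (−0.174). The tested genes outside the list that were most like the members' mean over the same libraries were Fads2 (0.971), Rcan1 (0.97), Cstb (0.958), Galk2 (0.956) and Surf4 (0.947). These are descriptions over libraries that share groups, depth and run, with no test. At 24 h in APC-intact cells the called members had a median RPKM of 21.8 and a median SE of 0.0491, against 9.99 and 0.0612 for those not called.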
